A study of Chlamydomonas reinhardtii with 4 samples.

Results

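The mating type locus of the unicellular green alga Chlamydomonas reinhardtii was described through the H3K27ac peaks that lie on it and around it. Overlapping peaks of the 4 deposited lists were merged into regions, and the members are all regions on the separate sequence named mating_type_plus and all regions on chromosome 6 that start below 1000 kb. These were 26 and 224 regions, in total 250 of 15521. Coordinates count from 1, so each start given here is the start in the deposited lists plus 1. The genome build of the lists is not given in the sources used here, so no gene was assigned to a peak. The last member of chromosome 6 lay at 992465 to 992890, with fold enrichments of 1.998 in dnmt1 mt+, 2.69 in WT mt+, 2.75 in dnmt1 mt– and 2.59 in WT mt–. The next region, outside the limit, lay at 1005536 to 1006345, with 6.56, 5.90, 4.53 and 5.40 in that order of libraries.

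H3K27ac is a histone acetylation found at active promoters, and its positions were read by chromatin immunoprecipitation and sequencing of vegetative cells. The libraries were dnmt1 mt+ and WT mt+ of strain CC-5155, and dnmt1 mt– and WT mt– of strain CC-5325. The dnmt1 libraries carry a DNMT1 knockout, and WT libraries are the wild type of the same strain. Each group was 1 library, so no difference between groups was tested, and strain and mating type cannot be told apart. Whether each knockout is a single clone is not given in the sources used here. The lists held 14986 peaks in dnmt1 mt+, 14990 in WT mt+, 15323 in dnmt1 mt– and 15065 in WT mt–, without read counts, so depth is unknown.

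Sex in this alga is set by a locus on chromosome 6 with a plus form and a minus form, which are rearranged relative to each other and do not recombine freely. The minus form carries MID, a transcription factor gene that sets the minus gamete programme, and the plus form carries FUS1, which encodes a surface protein needed for gamete fusion. Both forms also hold many shared genes. DNMT1 belongs to the enzymes that keep cytosine methylation in place through DNA replication. Which form chromosome 6 carries in the build of the lists, beside the separate mating_type_plus sequence, was not determined. Reads can align only where a strain has matching DNA. The lists give no read coverage, so a stretch that a strain lacks and a stretch that it has without the mark cannot be told apart.

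The sequence named for the plus form carried peaks mainly in the mt+ libraries, and the start of chromosome 6 carried additional peaks in the mt– libraries. On mating_type_plus, 15 of the 26 regions had a peak in dnmt1 mt+ and WT mt+ and in neither mt– library (57.7%, exact 95% Clopper-Pearson interval 36.9 to 76.7, counting error only). Over all 15521 regions this share was 0.193%. On chromosome 6 below 1000 kb, 60 of the 224 regions had a peak in dnmt1 mt– and WT mt– and in neither mt+ library (26.8%, interval 21.1 to 33.1), against 0.812% over all regions. A peak in all 4 libraries was found at 7 regions of mating_type_plus (26.9%, interval 11.6 to 47.8) and at 132 of chromosome 6 (58.9%, interval 52.2 to 65.4), against 92.5% over all regions. Farther along chromosome 6, 1056 of 1141 regions (92.5%) had a peak in all 4 libraries and 8 (0.701%) in the mt– libraries alone. Neighbouring regions are not independent, so these intervals are too narrow.

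Along mating_type_plus the regions fell into 6 clusters separated by more than 30 kb, a distance chosen after the values were seen. The largest cluster, from 118924 to 161869, held 11 regions. It had 10 peaks in dnmt1 mt+, 11 in WT mt+, 4 in dnmt1 mt– and 4 in WT mt–. The cluster at the far end, from 353115 to 365338, had 3, 4, 3 and 3 peaks in that order, and the first cluster, from 1782 to 10425, had 3, 3, 1 and 1. The remaining clusters, from 57422 to 63560, at 238913 to 239584 and from 272073 to 279275, had 0 peaks in both mt– libraries. Between clusters the mt+ libraries had long stretches without a peak. The longest ran over 77.07 kb in dnmt1 mt+ and 77.05 kb in WT mt+, and the next over 73.97 and 73.85 kb. In the mt– libraries the longest stretch without a peak measured 193.5 kb in both genotypes, from 160189 to 353677 in dnmt1 mt– and from 160171 to 353702 in WT mt–. The median distance between neighbouring peaks on mating_type_plus was short beside these, at 4350 bp in dnmt1 mt+, 2724 bp in WT mt+, 5089 bp in dnmt1 mt– and 5043 bp in WT mt–. On numbered chromosomes it was 5055, 5016, 4925 and 4970 bp in that order.

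**Figure D1:**
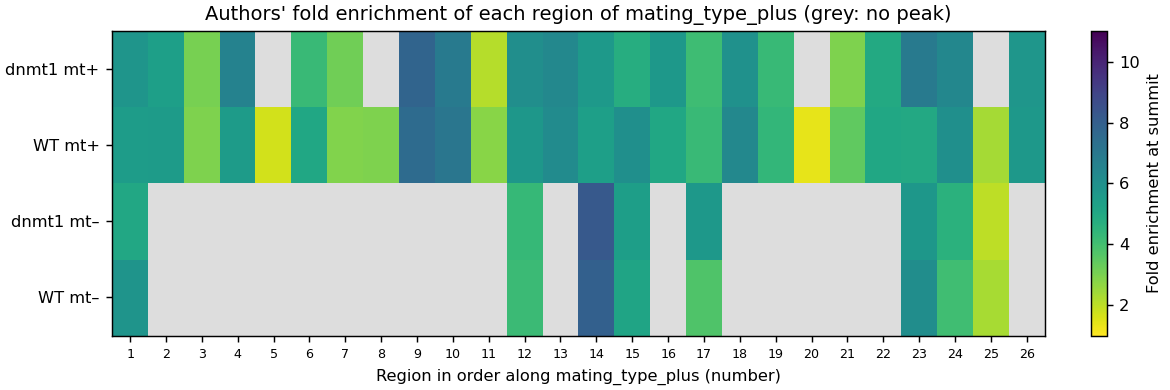
The authors' fold enrichment at the summit (colour) is shown for each of the 26 regions of mating_type_plus in order along the sequence (x axis, number) and for each library (rows), with grey where the list has no peak. The rows of both mt+ libraries are nearly full, with 22 and 26 peaks, whereas each mt– library has 8.

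The 15 regions of mating_type_plus with mt+ peaks alone were of ordinary strength. Strength is given as the authors' fold enrichment at the summit of a peak, which describes a peak within its own list. Their median was 5.36 in dnmt1 mt+ (range 2.11 to 7.77) and 5.05 in WT mt+ (2.80 to 7.51), where the medians of the whole lists were 5.46 and 5.65. The strongest by fold enrichment, at 124792 to 125765, had 7.77 in dnmt1 mt+ and 7.51 in WT mt+, and its −log10 q exceeded that of 94.2% and 91.9% of the peaks of those lists. Its neighbour at 131650 to 132514 had 6.91 and 7.06, above 82.3% and 83.0% of the lists. The pair at 146585 to 147824 and 57422 to 58165 had 6.32 and 6.55 in dnmt1 mt+, and 6.17 and 5.51 in WT mt+. All 4 lay above the median −log10 q of both lists.

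The other regions of mt+ alone on mating_type_plus covered a wide range of strength. The region at 161302 to 161869 had 5.95 in dnmt1 mt+ and 6.32 in WT mt+, the one at 364723 to 365338 had 5.73 and 5.68, and the one at 158343 to 158987 had 5.68 and 5.05. The only region between 161869 and 272073, at 238913 to 239584, had 4.28 in dnmt1 mt+ and 4.39 in WT mt+, above 39.4% and 35.6% of the peaks of those lists. Among the weak ones were 143649 to 144314, with 2.11 and 2.80, and 10024 to 10425, with 3.04 and 2.93. In dnmt1 mt+, 8 of the 15 peaks lay above the median −log10 q of the list, and in WT mt+ 6 did.

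The 7 regions that all libraries shared on mating_type_plus had summits close together but unequal widths. They are numbers 1, 12, 14, 15, 17, 23 and 24 along the sequence. At 361627 to 363085 the peak was 1418 bp wide in dnmt1 mt+ and 1420 bp in WT mt+, against 266 bp in dnmt1 mt– and 279 bp in WT mt–, and the 4 summits lay within 120 bp. At 353115 to 354612 the widths were 1369 and 1488 bp in the mt+ libraries, against 537 and 505 bp in the mt– libraries, with summits within 144 bp. At 159536 to 160759 they were 696 and 882 bp against 278 and 241 bp, with summits within 15 bp. The mt+ peaks were wider at all of these, and the same held at 155269 to 156130, where 839 bp in dnmt1 mt+ and 839 bp in WT mt+ stood against 390 bp in dnmt1 mt– and 409 bp in WT mt–. At 144969 to 145745 the widths were 777 and 741 bp in the mt+ libraries and 488 and 496 bp in the mt– libraries. At 149291 to 150248 they were 928 and 850 bp, against 606 and 621 bp. The exception was the region nearest the start of the sequence, at 1782 to 2240, with 439 and 441 bp in the mt+ libraries and 459 and 444 bp in the mt– libraries.

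In 6 of the 7 shared regions the mt– peak lay wholly inside the mt+ peak of the same genotype. The median ratio of mt+ to mt– width was 2.15 for the dnmt1 libraries and 2.05 for the WT libraries, whereas over all 14364 shared regions of the series it was 0.979 and 0.992. A peak at least 1.5 times as wide in mt+ as in mt– in both genotypes was found at 4 of the 7 regions, and at 0.125% of all shared regions. The ratio of dnmt1 to WT width was near 1 in each strain, at 0.999 in mt+ and 0.984 in mt–. Within the lists, the region at 149291 to 150248 was strong in every library, with a −log10 q above that of 93.8% of the peaks in dnmt1 mt+, 86.9% in WT mt+, 83.5% in dnmt1 mt– and 89.1% in WT mt–. The eighth mt– peak of mating_type_plus lay at 363936 to 364309. It was weak, with 2.34 in WT mt+, 1.98 in dnmt1 mt– and 2.31 in WT mt–, and had no peak in dnmt1 mt+.

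**Figure D2:**
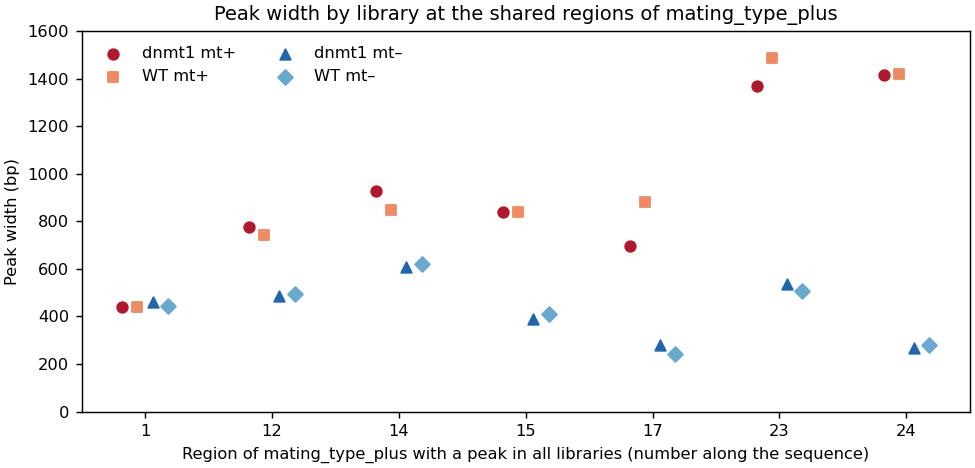
The width of the peak in bp (y axis) is plotted for each library at the 7 regions of mating_type_plus that have a peak in all libraries (x axis, number along the sequence). The mt+ points lie above the mt– points at every region except number 1, and reach 1488 bp where the mt– points stay at 621 bp or less.

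Along the first 1000 kb of chromosome 6 the difference ran the other way in most places and was largest in a few. The start of the chromosome had 139 peaks in dnmt1 mt+, 147 in WT mt+, 210 in dnmt1 mt– and 208 in WT mt–. In 50 kb bins, 15 of 20 had fewer peaks in mt+ than in mt– in both genotypes (75%, exact interval 50.9 to 91.3), against 4.45% of all bins of the numbered chromosomes. More peaks in mt+ in both genotypes were seen in 1 of the 20 bins, against 31 of 2248 bins (1.38%) of the numbered chromosomes. A count of 1 is too small to compare with that share. The bin from 200 to 250 kb had 8 peaks in dnmt1 mt+ and 8 in WT mt+, against 24 in dnmt1 mt– and 24 in WT mt–. The bin from 750 to 800 kb had 14 and 17 peaks in the mt+ libraries and 28 and 26 in the mt– libraries. A deficit of 5 or more mt+ peaks in both genotypes was seen in 4 bins, and in 0 of the 2228 other bins of the numbered chromosomes. From 300 to 400 kb all libraries had equal counts, with 8 and then 7 peaks per bin.

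**Figure D3:**
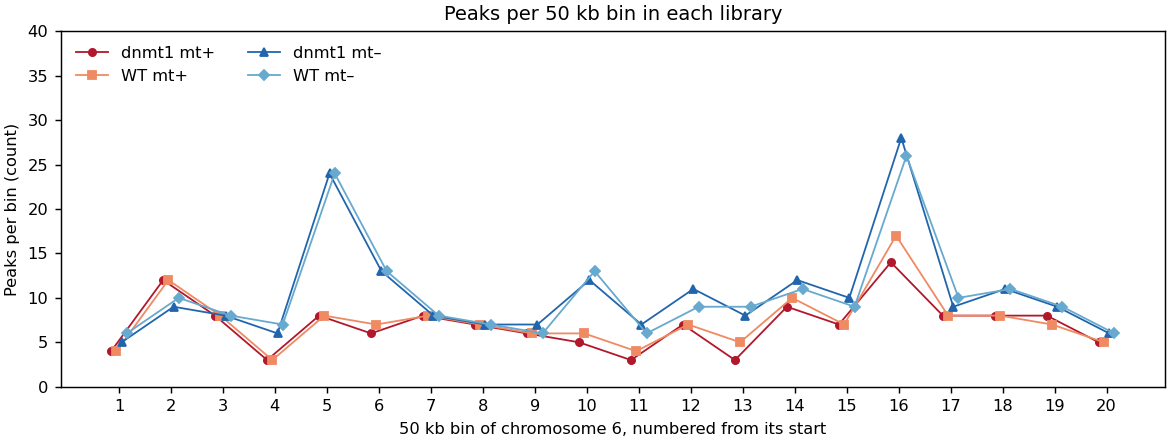
The number of peaks (y axis) is plotted for each library in the 20 consecutive 50 kb bins of the first 1000 kb of chromosome 6 (x axis, bin number). The mt– lines rise to 24 peaks in bin 5 and to 28 and 26 in bin 16, above the mt+ lines at 8 in bin 5 and at 14 and 17 in bin 16.

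For description, chromosome 6 was divided at visible changes of the pattern, a choice made after the values were seen. The first stretch, from 8284 to 221768, held 40 regions, of which 29 were shared by all libraries. A cluster of 3 regions with mt+ peaks alone stood at 80041 to 80647, 81027 to 81402 and 81936 to 82298. Their fold enrichments were 2.399, 3.34 and 3.57 in dnmt1 mt+ and 2.61, 2.65 and 3.11 in WT mt+. The region that follows, at 82323 to 83253, had a peak in all libraries, 537 bp wide in dnmt1 mt+ and 490 bp in WT mt+, against 878 bp in dnmt1 mt– and 931 bp in WT mt–. The remaining region with mt+ peaks alone lay at 207876 to 208251, with 2.93 in dnmt1 mt+ and 3.87 in WT mt+, so the members of chromosome 6 had 4 such regions in all (1.79%, exact interval 0.489 to 4.51). Over all regions of the series the share with peaks in both mt+ libraries alone was 0.193%, and on the rest of chromosome 6 it was 0 of 1141. In the opposite direction, 4 regions of this stretch had mt– peaks alone. The region at 178873 to 179853 had 5.55 in dnmt1 mt– and 4.73 in WT mt–, close to the median strength of both lists, and the others, at 29113 to 29537, 157729 to 157983 and 175649 to 176270, had at most 3.70 in dnmt1 mt– and 2.65 in WT mt–. The 3 remaining regions of the stretch had a WT mt– peak alone.

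The second stretch, from 226905 to 258379, was a run of evenly spaced peaks that the mt– libraries had and the mt+ libraries almost entirely lacked. Of its 26 regions, 24 had peaks in dnmt1 mt– and WT mt– alone, and 2 had peaks in all libraries. The midpoints of neighbouring regions were 1197 bp apart in the median (SD 33.7 bp over 24 distances, range 1133 to 1252), and the remaining distance was 2351 bp. The regions were narrow, with a median width of 505.5 bp. All were weak: the median fold enrichment was 2.85 in dnmt1 mt– and 2.44 in WT mt–, which is 0.490 and 0.452 of the medians of those lists. None of the 26 lay above the median −log10 q of either mt– list. The regions shared by all libraries were at 230390 to 230920, with 2.19 in dnmt1 mt+, 2.64 in WT mt+, 2.83 in dnmt1 mt– and 2.67 in WT mt–, and at 232802 to 233338, with 2.15, 2.13, 3.14 and 3.04 in that order. From the second of these onward the mt+ libraries had no peak for 36.64 kb in dnmt1 mt+ and 30.11 kb in WT mt+, while the mt– libraries had 20 regions in a row between 233970 and 258379.

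A second run with nearly the same step lay from 747140 to 788638, and there the mt+ libraries kept part of the peaks. Its 32 regions had a median midpoint distance of 1174 bp (SD 49.8 bp over 29 distances), apart from distances of 1658 and 5104 bp. Peaks numbered 14 in dnmt1 mt+, 17 in WT mt+, 30 in dnmt1 mt– and 27 in WT mt–. All libraries shared 13 regions, 9 had mt– peaks alone, 4 were held by 3 libraries and 6 by 1. Median fold enrichments were 2.08 in dnmt1 mt+, 2.41 in WT mt+, 1.95 in dnmt1 mt– and 1.94 in WT mt–, from 0.334 to 0.426 of the list medians. None of the 32 lay above the median −log10 q of any list. The part that the authors' threshold has in which libraries list such weak peaks was not tested.

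Runs of this kind were also found elsewhere, but there most of their regions had a peak in all libraries. A run was taken as 5 or more successive regions with midpoints 900 to 1500 bp apart, a rule set after these members were seen. Runs held 3.16% of all regions and 57 of the 250 members, which form 4 runs because gaps split both stretches. Outside the members there were 45 runs with 434 regions. Peaks of all 4 libraries stood at 406 of them (93.5%), and 2 had mt– peaks alone. Among the 57 members in runs, 15 (26.3%) had a peak in all 4 libraries and 33 had mt– peaks alone. The median step of the other runs was 1181 bp, with run medians from 1114 to 1282 bp. The longest of them, with 22 regions on chromosome 1 from 7940500 to 7965771, had a peak of every library at all 22.

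**Figure D4:**
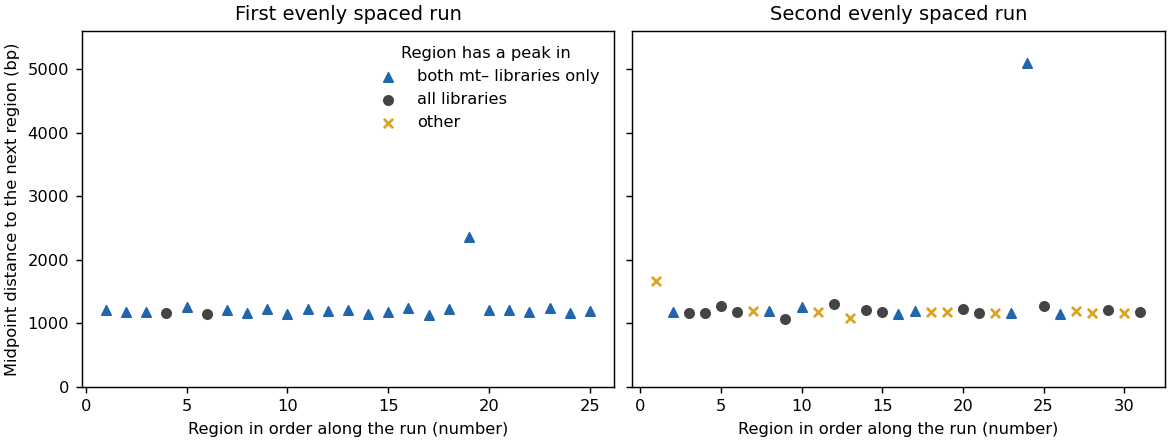
The distance in bp from the midpoint of each region to the next (y axis) is plotted in order along the first run (left) and the second run (right), with symbols for the libraries that have the peak. Distances stay close to 1197 bp on the left and 1174 bp on the right, except for 2351 bp in the first run and 1658 and 5104 bp in the second.

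Between both runs, the stretch from 263315 to 444270 was almost alike in all libraries. Of its 28 regions, 26 were shared by all and 0 had mt– peaks alone. Its median fold enrichment was 6.16 in dnmt1 mt+, 6.16 in WT mt+, 6.62 in dnmt1 mt– and 5.95 in WT mt–, from 1.09 to 1.14 of the list medians. It included the strong regions at 324303 to 325287, with 8.01, 7.75, 8.93 and 7.76 in that order, and at 363914 to 364749, with 7.57, 7.39, 7.37 and 7.39. An exception in shape lay at 269918 to 271897. There each mt+ library had 2 peaks, the main one 224 bp wide in dnmt1 mt+ and 247 bp in WT mt+, where the mt– libraries had 1 peak of 1418 bp and 1407 bp. The mt+ summits were at 271028 and 271045, and the mt– summits at 271628 and 271638.

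From 454395 to 730397 mt– peaks without an mt+ partner, some strong and others weak, alternated with regions that all libraries shared. This stretch had 33 peaks in dnmt1 mt+, 38 in WT mt+, 57 in dnmt1 mt– and 55 in WT mt–. Of its 61 regions, 33 were shared by all and 17 had mt– peaks alone. The fold enrichments of these 17 ranged from 2.30 to 10.3 in dnmt1 mt–, where the list median was 5.83. In WT mt– they ranged from 2.44 to 7.75, where it was 5.39. The strongest region of mt– alone, at 583119 to 584265, reached 10.3-fold enrichment in dnmt1 mt– and 7.75-fold in WT mt–, above 99.8% and 98.0% of the peaks of those lists by −log10 q. Next to it, 579561 to 581209 had 8.29 and 6.24, above 91.35% and 79.4%. Directly after them, 584432 to 584998 and 585353 to 586703 had peaks in all libraries, with 6.02 and 6.04 in dnmt1 mt+, 6.78 and 6.30 in WT mt+, 6.13 and 8.14 in dnmt1 mt–, and 4.39 and 6.50 in WT mt–. Peaks of mt– alone and peaks of all libraries were thus direct neighbours there.

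Other places in this stretch showed the same alternation. A row of 5 regions with mt– peaks alone ran from 469798 to 481194, led by 469798 to 470761 with 6.65 in dnmt1 mt– and 4.83 in WT mt–. The region at 604480 to 605641 had 6.65 in both mt– libraries. A row of 3 ran from 629366 to 642784, with 6.17 and 5.90 at 629366 to 630458 and 7.18 and 5.49 at 640069 to 641095. The last region of mt– alone in this stretch, at 715114 to 715909, had 6.14 and 5.42. By −log10 q it lay above 54.2% of the dnmt1 mt– list and 47.5% of the WT mt– list. It stood between the shared regions at 712877 to 713643 and 717364 to 718789. Stretches without a peak were longest here in every library: 43.35 kb in dnmt1 mt+, 43.31 kb in WT mt+, 37.56 kb in dnmt1 mt– and 29.27 kb in WT mt–, all ending near 529200. Over all 60 regions with mt– peaks alone, 8 lay above the median −log10 q of the dnmt1 mt– list and 5 above that of the WT mt– list. Their median fold enrichment was 2.85 in dnmt1 mt– and 2.44 in WT mt–.

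**Figure D5:**
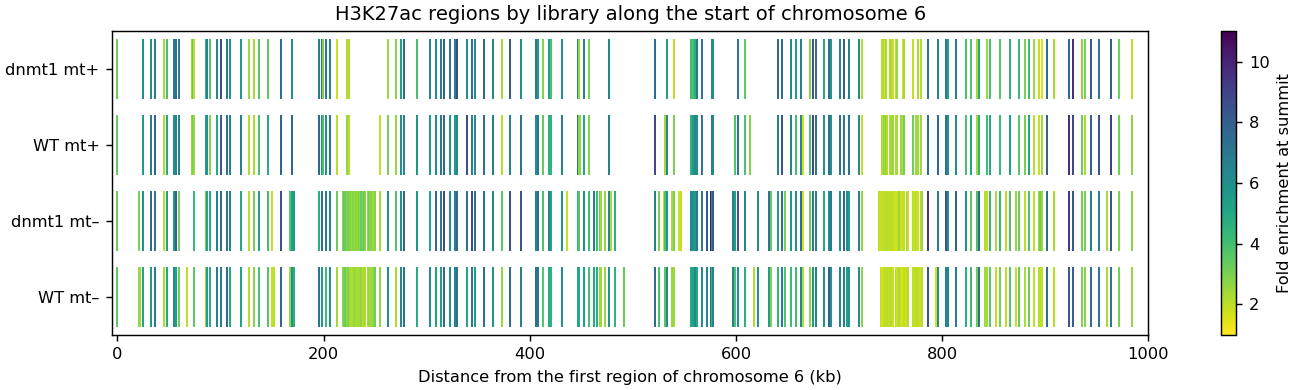
Each line marks a region with a peak in the library of its row, placed by its distance in kb from the first region of chromosome 6 (x axis) and coloured by the authors' fold enrichment at the summit. The mt– rows show 2 dense blocks of weak peaks, which are the first and the second evenly spaced run, and between the runs further peaks that the mt+ rows lack.

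From 849608 to 905670 wide and narrow regions took turns. The 5 wide ones measured 1246 to 1373 bp, lay 9.28 kb apart in the median (range 8.996 to 10.06 kb) and had peaks in all libraries. The 6 narrow ones, of 616 to 783 bp, lay 9.05 kb apart in the median, and the next wide region followed at a median of 3.84 kb. Of the narrow ones, 4 had mt– peaks alone and 2 had peaks in all libraries. Wide regions had fold enrichments of 3.69 to 4.60 in dnmt1 mt+, 3.595 to 5.37 in WT mt+, 3.30 to 4.32 in dnmt1 mt– and 3.07 to 3.69 in WT mt–. The narrow ones reached 2.53 in dnmt1 mt– and 2.399 in WT mt–, and where the mt+ libraries had them, 3.02 in dnmt1 mt+ and 3.08 in WT mt+. The other 4 regions of the stretch fell outside both width classes, and 3 of them had peaks in all libraries. The pattern was noticed in the data, and the width bounds were set after that.

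Beyond it, from 909084 to 992890, 10 of 12 regions had peaks in all libraries. When shared members of chromosome 6 were ranked by the lowest of their 4 fold enrichments, 3 of the top 5 lay here. The region at 934312 to 935454 had 9.60 in dnmt1 mt+, 8.88 in WT mt+, 8.31 in dnmt1 mt– and 8.09 in WT mt–. The region at 930619 to 932061 had 7.54, 9.63, 9.29 and 8.20 in that order, and the one at 909084 to 910421 had 7.53, 7.99, 7.36 and 7.49. The stretch between the second run and the paired regions, from 793178 to 844338, was likewise shared, with 9 of 10 regions in all libraries and 0 of mt– alone. It held the widest shared region, at 820876 to 823216, which measured 2341 bp and had 6.89, 5.97, 8.08 and 6.74 in the same order.

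Where all libraries had a peak on chromosome 6, the mt+ peak was at times the narrower. A main peak at least 1.5 times as wide in mt– as in mt+ in both genotypes was found at 8 of the 132 shared members (6.06%, exact interval 2.65 to 11.6), against 0.383% of all shared regions and 6 of 1056 (0.568%) on the rest of chromosome 6. At 464757 to 465751 the widths were 301 bp in dnmt1 mt+ and 320 bp in WT mt+, against 995 bp in dnmt1 mt– and 949 bp in WT mt–. The summits there also differed in position, at 464901 and 464906 in the mt+ libraries and at 465288 and 465321 in the mt– libraries. At 455298 to 455867 they were 267 and 252 bp in the mt+ libraries and 562 and 568 bp in the mt– libraries. The opposite was seen at 1 region, 67775 to 68901, with 1103 and 1073 bp in the mt+ libraries and 650 and 634 bp in the mt– libraries. Its summits lay at 68574 and 68446 in the mt+ libraries and at 68093 and 68000 in the mt– libraries. Over all 132 shared members the median ratio of mt+ to mt– width was 0.908 for the dnmt1 libraries and 0.957 for the WT libraries. Over all shared regions of the series it was 0.979 and 0.992. The ratio of dnmt1 to WT width was 0.995 in mt+ and 1.01 in mt–.

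Between dnmt1 and WT, 4 members of mating_type_plus and 28 of chromosome 6 were gained or lost in either strain. None of them lay above the median −log10 q in any list. On mating_type_plus, dnmt1 mt+ lacked 4 of the 26 WT mt+ peaks (15.4%, exact interval 4.36 to 34.9), where 2.23% of all regions were lost in that strain. It gained 0 of 26, which allows a share of up to 11.5% and stands beside 1.82% of all regions. Since WT mt+ had a peak at all 26, a gain could only have been a further region. The lost ones were at 58333 to 58593 with 1.69, 118924 to 119146 with 2.93, 272073 to 272312 with 1.38 and 363936 to 364309 with 2.34 in WT mt+. All were narrow, at 223 to 374 bp. In the mt– strain 0 regions of mating_type_plus were gained and 0 were lost, and each mt– library had a peak at only 8 of the 26. Each 0 allows a share of up to 11.5% of the 26, although only the 8 with a WT mt– peak could be lost. Over all regions 2.91% were gained and 1.31% were lost in that strain, so these counts of 0 could not be told apart from those shares.

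On chromosome 6 below 1000 kb, dnmt1 mt+ lost 9 of 224 regions (4.02%, exact interval 1.85 to 7.49), against 2.23% of all regions. It gained 1 (0.446%, interval 0.0113 to 2.46), against 1.82%. In the mt– strain dnmt1 gained 10 (4.46%, interval 2.16 to 8.06), against 2.91% of all regions, and lost 8 (3.57%, interval 1.55 to 6.92), against 1.31%. None of these 28 regions lay above the median −log10 q in any list. The strongest loss in mt+ was at 606476 to 607237, which had 3.77 in WT mt+ and no peak in dnmt1 mt+, while dnmt1 mt– had 5.30 and WT mt– had 3.82. Next came 621404 to 621673 with 2.87 and 456383 to 457054 with 2.72, both in WT mt+ alone. The single gain in mt+ was at 916422 to 916849, with 2.32 in dnmt1 mt+, and both mt– libraries had a peak there as well.

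The gains in dnmt1 mt– reached 2.28 at 487208 to 487548, followed by 2.02 at 759428 to 759844, where both mt+ libraries also had a peak, and 1.97 at 747140 to 747521. The other 7 ranged from 1.63 to 1.90. The losses in that strain were led by 499491 to 499929, with 3.37 in WT mt–, and 29922 to 30400, with 2.50, and the other 6 ranged from 1.64 to 2.12. Of the 10 gains, 5 lay in the second run and 4 between 454395 and 730397. No member was gained in both strains: 0 of 250 allows a share of up to 1.2%, beside 1.07% over all regions. No member was lost in both strains either, beside 0.264% over all regions, and none had a peak in the crossed pairs of WT of 1 mating type with dnmt1 of the other, beside 0.49%. With 250 members these counts of 0 could not be told apart from the shares over all regions.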

How the data were processed

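The authors deposited 1 H3K27ac peak list per library, so peaks were called per library. Tools named in the submitters' processing notes are MACS2 2.2.7.1, deepTools 3.5.1, Bowtie2 2.4.2, Trim Galore 0.6.7 and Picard; no source used here gives their options or the build. Per the labels, an input library that also served H3K4me1 data was the control. The deposited columns are the position, the summit offset in bp, the −log10 p and −log10 q of the peak, a score near 10 times −log10 q, and a fold enrichment ratio. The lowest −log10 q per list was 2.01 to 2.17, so a missing peak means none past that threshold.

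Peaks overlapping by 1 bp or more were merged into regions. A region was gained or lost where dnmt1 or WT alone of a strain had a peak. The main peak of a region is that with the highest −log10 q, and widths are its widths. Fold values were compared within a list. Intervals are exact 95% Clopper-Pearson and cover counting error; the limit for a count of 0 is 3 counts. No 2 lists had more than 2 identical intervals. Regions were named by a rule on pattern, strength, width and gaps. The members and rules were chosen with earlier results of these data known. The code was tested on simulated lists with planted patterns. The alternatives were overlap of 50%, summits within 200 bp, joining within 200 bp, −log10 q of at least 10, lists of equal length, a limit of 800 kb and other bin lengths. Scripts ran on Python 3.11.15 with matplotlib 3.10.9, scipy 1.17.1, pandas 2.3.3 and numpy 2.4.6.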

Additional observations from a re-analysis of the deposited data

Results flagged for a closer look

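The balance of gained and lost members of chromosome 6 in dnmt1 had opposite signs in the strains. Gained minus lost regions came to -8 in mt+ and 2 in mt–. The difference was not tested, since each group is 1 library. For the members of chromosome 6, the balance of the mt– strain had the same sign as in mt+ under 2 alternatives. There were 2 gained and 18 lost regions for lists of equal length, and 8 gained and 11 lost for a −log10 q of at least 10.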

How the results depend on the processing

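The 14 results were computed under alternatives 68 times, and 58 of these values were within 1.5 times the reported one. These include every count on mating_type_plus and, on chromosome 6, every count of regions of all 4 libraries and of regions with mt– peaks alone. The 10 others were counts on chromosome 6: of regions of mt+ alone, of regions gained or lost in dnmt1, and of bins. With summits within 200 bp, chromosome 6 had 10 regions of mt+ alone, dnmt1 gained 5 in mt+, and in mt– it gained 20 and lost 18. With a −log10 q of at least 10, dnmt1 mt+ gained 4 and lost 20, whereas the 8 gained and 11 lost in dnmt1 mt– stayed within 1.5 times. With lists of equal length, dnmt1 mt– gained 2 and lost 18. With the limit at 800 kb, dnmt1 mt+ gained 0. Counts were compared as such, also where the number of bins or regions changed. Fewer mt+ peaks in both genotypes were found in 15 of 20 bins as reported. The counts of 20 of 40 bins at 25 kb, and of 11 of 20 bins at a −log10 q of at least 10, passed as within 1.5 times. With 100 kb bins, 8 of 10 bins had fewer mt+ peaks. The cause of these moves was not tested, except that longer bins are fewer. The run spacing of 1000 to 1400 bp and the width ratio of 2 were chosen after seeing the data and gave the same counts, 57 and 4. No paired analysis was possible because the labels give no replicate numbers with 1 library per group; strains and genotypes were set side by side as counts, without a test. Depth is unknown, and its part in which lists hold weak peaks was not tested.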
